A study of Mus musculus with 12 samples.

Results

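Osteoblasts sorted from PTH-treated mice were compared with osteoblasts sorted from vehicle-treated mice by RNA-Seq. These were 6 of the 12 libraries of the series, 3 per group, and 13004 of the 23284 genes in the files were tested, namely those whose FPKM (a read count scaled to transcript length and library size) reached 1 in any of the 6 libraries. Both groups were female Col2.3-ECFP mice aged 12 weeks at the start. A fragment of the type I collagen promoter drives the cyan reporter of these mice in mature osteoblasts. The PTH group received human PTH(1-34) at 40 µg/kg per day, injected under the skin on 5 days per week for 3 weeks, and the control group received phosphate-buffered saline on the same days. Crushed bones of the skull, limbs and hips were digested 24 h after the last injection, and cells that were 7AAD-Lin-CD45-ECFP+ (alive, without blood lineage markers or CD45, and cyan) were sorted. The labels do not say whether a library was 1 mouse or a pool, nor at which clock time bones were taken. The *p* values below therefore measure the spread between these libraries. The other 6 libraries, mock and *Slpi*-overexpressing MC3T3-E1 cells (a line of mouse calvarial osteoblast precursors), appear only at the end.

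PTH acts through the receptor PTH1R, which couples to Gs and so raises cAMP, activates protein kinase A and phosphorylates CREB. In osteoblasts this is known to switch on immediate early genes within hours, and daily injection builds bone, while constant exposure favours resorption. Osteoblasts secrete type I collagen and the proteins that fold, crosslink and mineralize it, and they steer osteoclasts through RANKL (*Tnfsf11*) and its decoy osteoprotegerin (*Tnfrsf11b*).

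The libraries were those of osteoblasts by their markers, but not by these alone. *Bglap*, the osteocalcin gene, had an FPKM of 6963, 7290.2 and 8826 with vehicle and 7978, 7017 and 14279.8 with PTH, and *Ibsp*, the bone sialoprotein gene, had 1309, 1153 and 1429 with vehicle and 1694, 1475 and 1814 with PTH. *Col1a1* and *Col1a2*, the genes of the chains of type I collagen, were listed at 0 in vehicle replicate 3 and in all PTH libraries and at 24170.4 to 26654.7 FPKM in vehicle replicates 1 and 2. A value of 0 for them cannot be read as a level, and neither gene is counted in any direction below. PTH replicate 2 also held muscle genes. The 14 cardiac markers summed to 3616 FPKM there, against 4.84 to 23.5 in the other libraries. Skeletal muscle markers summed to 357.8 there, against 7.70 to 13.3, and smooth muscle and pericyte markers to 613.2, against 94.4 to 280.8. PTH replicate 3 lacked the gut epithelial genes that the other libraries held, with a sum of 12.8 FPKM against 472 to 944.4. Pearson's r of log2(FPKM + 1) across genes, which are not independent replicates, was 0.952 to 0.962 among vehicle libraries and 0.908 to 0.946 among PTH libraries, while vehicle replicate 3 and PTH replicate 1 reached 0.948. Reads per library are not known from FPKM. The steps in low values gave a depth relative to vehicle replicate 1 of 0.788 to 1.40.

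Of the 13004 genes, 830 (6.38%) were higher and 1151 (8.85%) lower with PTH at an adjusted *p* under 0.05, from limma with the Benjamini-Hochberg adjustment over all genes tested. Such genes are called higher or lower below. At least 2-fold changes among them numbered 113 higher (0.869%) and 491 lower (3.78%), so that large falls outnumbered large rises. The groups did not overlap for any of these genes. Over all genes tested the groups did not overlap for 2537 (19.5%) in the higher and 2716 (20.9%) in the lower direction. The adjusted calls rested on both of the first vehicle libraries. Without vehicle replicate 1 a single gene was called, *Ecm1* (limma adjusted *p* = 0.0224), and without vehicle replicate 2 none was, although 823 and 832 genes then had an adjusted *p* under 0.1. At an unadjusted limma *p* under 0.05, all 830 higher and 1144 of the 1151 lower genes passed with the same sign in every fit that left out 1 library. This threshold is looser and the genes were called from the same libraries, so passing it is no independent support. Of the genes named below, *Arntl*, *Chrd*, *Cry2*, *Inhba*, *Lepr*, *Pfkm*, *Wnt10a* and *Wnt16* were called in no fit that left out 1 library. With quantile normalisation *Alpl*, *Col5a1*, *Comp*, *Dusp1*, *Junb*, *Nr4a1*, *Omd*, *Ptgs2* and *Xbp1* had log2 fold changes of 0.28 to 0.49 and were not called. With 3 libraries a side, 0.10 is the smallest two-sided *p* that exact permutation allows for a single gene. The filter put *Cd93*, with a highest FPKM of 1.00, just inside and *Col23a1*, with 0.999, just outside.

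Among named genes the largest rise was that of *Slpi*, at chr2:164354070-164389095 in GRCm38, which encodes secretory leukocyte protease inhibitor, an inhibitor of serine proteases of neutrophils found in mucosal fluids. Its FPKM was 1.64, 2.38 and 2.62 with vehicle and 37.5, 19.8 and 27.2 with PTH, and every PTH library lay above every vehicle library (log2 fold change 3.15, standard error 0.240, limma adjusted *p* = 0.0131). The change was 2.93 to 3.37 with 1 library left out, with an adjusted *p* of 0.0734 and 0.0736 without vehicle replicates 1 and 2. *Saa3*, an acute-phase serum amyloid A, followed at 0.969, 3.08 and 0 with vehicle and 7.796, 10.05 and 10.7 with PTH (log2 fold change 2.38, standard error 0.464). It was at 0 in vehicle replicate 3, and with a pseudocount of 0.1 its adjusted *p* was 0.0688 (limma). *Ecm1*, an extracellular matrix protein of skin and growth cartilage, had an FPKM of 35.7, 27.8 and 29.3 with vehicle and 165, 144 and 181 with PTH, and its *p* was the smallest of all genes (log2 fold change 2.36, standard error 0.133, limma adjusted *p* = 0.00479). The highest vehicle library lay far below the lowest PTH library.

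Among the other large rises, *Avpi1*, a gene first found as vasopressin-induced, had an FPKM of 4.89, 5.69 and 11.4 with vehicle and 28.6, 32.2 and 38.9 with PTH (log2 fold change 2.11). *Kcnn4*, a calcium-activated potassium channel, had 2.74, 4.78 and 3.92 with vehicle and 14.7, 14.5 and 16.4 with PTH (log2 fold change 1.77, standard error 0.176). *Rbp4*, the plasma carrier of retinol, had 2.82, 4.68 and 5.501 with vehicle and 18.97, 14.3 and 16.1 with PTH (log2 fold change 1.74, standard error 0.216). The groups did not overlap for these 3 genes, and *Avpi1* was higher in vehicle replicate 3 than in the other vehicle libraries. *Fgf2*, a growth factor that osteoblasts store in their matrix, had 0.321, 0.816 and 2.16 with vehicle and 3.73, 5.12 and 10.1 with PTH, highest in PTH replicate 3 (log2 fold change 1.80, standard error 0.408, limma adjusted *p* = 0.0331). Its adjusted *p* was 0.051 without PTH replicate 3 and 0.117 without vehicle replicate 2 (limma). The other named rises were *Dbp*, described with the clock genes, and *Ms4a3*, *Retnlg*, *S100a9* and *S100a8*, which are genes of granulocytes and their precursors and are described with the marker lists.

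The promoters of the 12 named rises were searched on both strands for the cAMP response element TGACGTCA, which CREB binds, for its shorter core TGACG, which the whole element contains, and for the AP-1 element TGANTCA, which Fos and Jun bind. The sequences, from RefSeq, reach from 250 bases before to 50 bases after the start of transcription in GRCm38.p6, and all 12 genes had an entry. No promoter of the 12 held the whole element, 2 genes held the core and 2 held an AP-1 element. Among all 27025 genes with promoters of this length, 2.03% held the whole element, 23% the core and 8.97% the AP-1 element. Counted by promoter, of which there were 32851, the shares were 1.79%, 20.8% and 7.81%. A match is a run of letters, not a bound site. Shown 5′ to 3′ are that of *Slpi*, the largest rise, that of *Ecm1*, the rise with the smallest *p*, and that of *Fgf2*, with cores of the cAMP element and AP-1 elements in capitals.
Slpi, chr2:164356458-164356757, minus strand: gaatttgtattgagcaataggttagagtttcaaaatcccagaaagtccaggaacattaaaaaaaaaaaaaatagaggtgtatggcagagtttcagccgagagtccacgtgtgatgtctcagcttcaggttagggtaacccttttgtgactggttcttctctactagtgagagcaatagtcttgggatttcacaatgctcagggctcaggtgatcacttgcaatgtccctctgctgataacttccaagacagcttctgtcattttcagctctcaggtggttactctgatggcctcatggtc
Ecm1, chr3:95739520-95739819, minus strand: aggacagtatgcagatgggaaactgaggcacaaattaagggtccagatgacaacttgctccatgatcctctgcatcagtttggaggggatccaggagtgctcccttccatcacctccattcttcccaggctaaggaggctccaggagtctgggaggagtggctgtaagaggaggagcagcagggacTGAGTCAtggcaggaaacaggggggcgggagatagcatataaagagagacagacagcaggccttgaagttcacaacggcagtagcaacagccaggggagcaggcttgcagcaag
Fgf2, chr3:37348403-37348702, plus strand: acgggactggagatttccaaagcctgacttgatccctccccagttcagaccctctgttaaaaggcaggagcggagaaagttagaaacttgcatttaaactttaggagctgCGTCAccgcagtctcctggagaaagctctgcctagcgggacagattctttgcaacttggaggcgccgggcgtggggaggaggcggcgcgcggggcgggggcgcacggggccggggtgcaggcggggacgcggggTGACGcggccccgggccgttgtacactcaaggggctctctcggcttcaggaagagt
The *Slpi* promoter held none of the 3 motifs, that of *Ecm1* held 1 AP-1 element, and that of *Fgf2* held 2 cores, 1 on each strand. The other matches were in *Rbp4*, whose promoter at chr19:38124762-38125061 held a core and an AP-1 element.

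**Figure D1:**
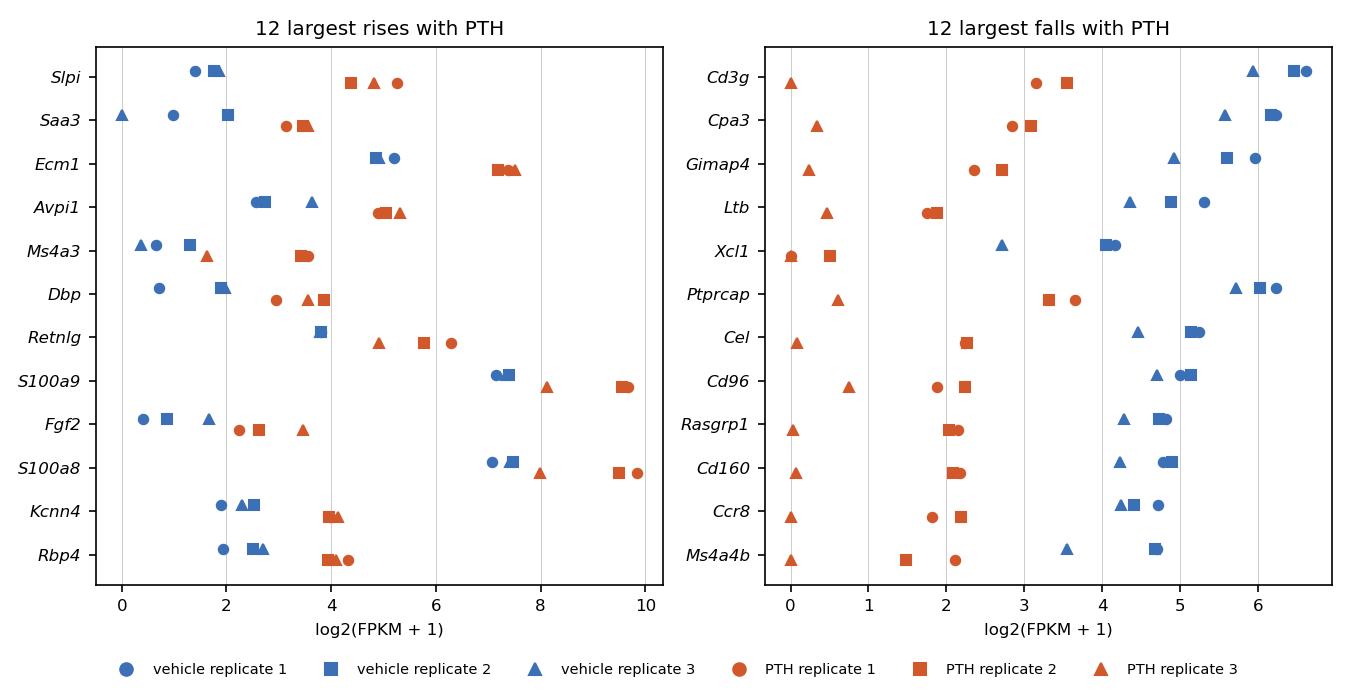
Level of the 12 largest rises (left) and the 12 largest falls (right) among named genes, as log2(FPKM + 1) in each library, with vehicle in blue and PTH in orange and the replicate given by the shape. The groups do not overlap for any of the 24 genes, and PTH replicate 3 (orange triangle) is the lowest or joint lowest PTH library for each fall.

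Of the 15 osteoblast markers tested, 2 (13.3%) were higher and none lower, beside 6.38% higher over all genes tested. The median log2 fold change was 0.36, or 0.39 without *Col1a1* and *Col1a2*, against 0.0066 over all genes tested. *Alpl*, the alkaline phosphatase that frees phosphate for mineral, had an FPKM of 205, 185 and 216 with vehicle and 294, 261 and 378 with PTH (log2 fold change 0.60, standard error 0.149, limma adjusted *p* = 0.0398), and *Spp1*, osteopontin, had 1878, 1690.3 and 2042 with vehicle and 3437, 3085 and 3321 with PTH (log2 fold change 0.81, standard error 0.107, limma adjusted *p* = 0.0139). Both rose without overlap of the groups. *Alpl* was not called with quantile normalisation (log2 fold change 0.32, limma adjusted *p* = 0.146), with no filter, with no variance trend, or without vehicle replicate 1, 2 or 3 or PTH replicate 1, and *Spp1* was not without vehicle replicate 1 or 2. The master regulators *Runx2* and *Sp7* were not called. *Sp7* had an FPKM of 65.8, 59.2 and 70.9 with vehicle and 85.95, 76.3 and 116 with PTH, above vehicle in every PTH library (limma adjusted *p* = 0.0924), and *Runx2* had 29.7, 30.6 and 36.7 with vehicle and 43.8, 36.7 and 53.2 with PTH (limma adjusted *p* = 0.101). *Bglap* had a log2 fold change of 0.28 (standard error 0.264), which turned to -0.032 without PTH replicate 3, and its reads can be shared with its copy *Bglap2*.

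Among 23 osteoblast transcription factors tested, 4 (17.4%) were higher, 2 (8.7%) lower and 17 not called, with a median of 0.46. Over all genes tested 6.38% were higher and 8.85% lower, so the lower share was near that of all genes. *Sox9*, the chondrocyte factor also present in early osteoblast precursors, had an FPKM of 8.103, 7.16 and 9.55 with vehicle and 17.6, 15.2 and 16.9 with PTH (log2 fold change 0.93, standard error 0.132, limma adjusted *p* = 0.0143). *Prrx1*, a factor of limb mesenchyme, had 17.6, 15.8 and 18.7 with vehicle and 31.1, 27.6 and 32.8 with PTH (log2 fold change 0.78, standard error 0.114). *Twist1* and *Zfp521*, both known to hold back *Runx2* activity, had log2 fold changes of 0.67 and 0.69. The 2 lower ones were *Lef1* and *Tcf7*, DNA-binding partners of β-catenin that T cells also express. *Tcf7* had an FPKM of 81.8, 78.7 and 64.1 with vehicle and 45.5, 38.6 and 55.4 with PTH and *Lef1* of 2.71, 3.53 and 2.91 with vehicle and 1.55, 0.777 and 0.546 with PTH, with log2 fold changes of -0.68 and -1.08. The summed T cell markers (below) were lowest in replicate 3 of each group. *Tcf7* was lowest of its group in vehicle replicate 3 but highest in PTH replicate 3, and *Lef1* was lowest in PTH replicate 3 but not in vehicle replicate 3. The part of T cells was not tested. All 6 called factors kept an unadjusted limma *p* under 0.05 with each library left out, as did 1974 of all 1981 called genes. Of osteoblast transcription factors, the count called higher (4) was 0 without vehicle replicate 1 or 2 and 2 without PTH replicate 1. The lower pair was not called without vehicle replicate 1 or 2 or PTH replicate 2, *Lef1* also not without vehicle replicate 3, and *Tcf7* also not without PTH replicate 1, with no filter or with no variance trend. Of 10 osteocyte genes tested, only *Dkk1* was higher (10%, beside 6.38% of all genes tested), with a log2 fold change of 0.60. *Dmp1*, which osteocytes and late osteoblasts make, had 781, 745 and 874 with vehicle and 1068, 923 and 1169 with PTH (limma adjusted *p* = 0.0673). *Sost*, which encodes sclerostin, was low, at 0.589, 0.641 and 1.45 with vehicle and 1.96, 0.739 and 0.840 with PTH, and its groups overlapped (limma adjusted *p* = 0.666).

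Most genes that fold and crosslink collagen were higher. Of 27 genes for collagen folding and crosslinking, 15 (55.6%) were higher, 1 was lower and 11 were not called, with a median log2 fold change of 0.79, and the groups did not overlap for 20 in the higher direction. Over all genes tested, 6.38% were called higher, and the groups did not overlap for 19.5% in that direction. *Serpinh1*, the collagen chaperone HSP47, had an FPKM of 995, 982 and 1276 with vehicle and 1962, 1676 and 2786 with PTH (log2 fold change 0.96, standard error 0.203, limma adjusted *p* = 0.0289). *Fkbp10*, a prolyl isomerase that acts on procollagen, had 149, 137 and 163 with vehicle and 286, 250.4 and 388 with PTH (log2 fold change 1.02, standard error 0.169). PTH replicate 3 was highest for both. *Bmp1*, the protease that removes the C-terminal propeptide, had 172, 159.5 and 205 with vehicle and 319, 286 and 432 with PTH (log2 fold change 0.93). *Pcolce*, the enhancer of that protease, had 308, 281 and 369 with vehicle and 653, 578 and 878 with PTH (log2 fold change 1.12). Both were highest in PTH replicate 3 too. *Loxl3*, a lysyl oxidase-like enzyme, had 11.8, 13.3 and 17.1 with vehicle and 28.3, 26.4 and 29.5 with PTH (log2 fold change 0.96). Its relative *Loxl2* was the lower member, at 139, 126 and 159 with vehicle and 62.9, 62.5 and 79.3 with PTH (log2 fold change -1.04, standard error 0.135, limma adjusted *p* = 0.0139). The groups were apart for both enzymes, in opposite directions. All 16 kept an unadjusted limma *p* under 0.05 with each library left out, as did 1974 of all 1981 called genes. Of collagen folding and crosslinking, the count called higher (15) was 0 without vehicle replicate 1 or 2 and 5 without PTH replicate 1.

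Of 27 collagen chains tested, *Col1a1* and *Col1a2* among them, 7 (25.9%) were higher, none was lower and 20 were not called, with a median of 0.50, or 0.53 without these 2. The called chains included 3 of collagen VI, which forms microfibrils around cells. *Col6a3* had an FPKM of 46.5, 39.5 and 43.4 with vehicle and 77.4, 75.04 and 82.6 with PTH. *Col6a1* had 102, 83.1 and 102 with vehicle and 147, 154 and 165 with PTH. *Col6a2* had 90.8, 83.3 and 93.4 with vehicle and 141, 149 and 161 with PTH. Their log2 fold changes were 0.85, 0.70 and 0.75 (limma adjusted *p* = 0.0133, 0.0173 and 0.0138), and for each the PTH libraries stood close together above the vehicle libraries. *Col5a1*, which regulates the width of collagen I fibrils, had 240.1, 219.6 and 257 with vehicle and 370.3, 351 and 498 with PTH (log2 fold change 0.75). *Col12a1*, which binds to fibrils, and *Col8a2* had log2 fold changes of 0.64 and 0.93. Of collagen chains, the count called higher (7) was 0 without vehicle replicate 1 or 2 and 4 without PTH replicate 1 or with quantile normalisation.

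Noncollagenous matrix genes had 8 of 23 members (34.8%) higher and none lower, beside 6.38% and 8.85% of all genes tested. Their median was 0.45. After *Ecm1*, the largest rises were those of *Fn1*, fibronectin, at 274, 234 and 273 FPKM with vehicle and 502, 485 and 627 with PTH (log2 fold change 1.04, standard error 0.128, limma adjusted *p* = 0.0138), and *Mgp*, an inhibitor of mineral growth, at 41.2, 46.8 and 46.6 with vehicle and 99.1, 101 and 70.2 with PTH (log2 fold change 0.98). *Bgn*, biglycan, had 1513, 1401 and 1686 with vehicle and 2319, 2142 and 3359 with PTH, and *Omd*, osteomodulin, had 131, 114 and 141 with vehicle and 234, 208 and 167 with PTH, with log2 fold changes of 0.74 and 0.65. PTH replicate 3 was the highest PTH library for *Fn1* and *Bgn* and the lowest for *Mgp* and *Omd*. Of 16 mineralization genes, 4 (25%) were higher and none lower. *Panx3*, a channel of hypertrophic chondrocytes and osteoblasts, had 3.72, 4.13 and 3.95 FPKM with vehicle and 15.3, 12.96 and 11.4 with PTH (log2 fold change 1.52, standard error 0.135, limma adjusted *p* = 0.0131). *Ank*, which exports pyrophosphate, and *Slc20a1*, a phosphate importer, had log2 fold changes of 0.48 and 0.45. Of noncollagenous bone matrix, the count called higher (8) was 0 without vehicle replicate 2, 1 without vehicle replicate 1, 3 without PTH replicate 1, 4 without vehicle replicate 3 and 5 with no filter on low values or with no variance trend. Of mineralization, the count called higher (4) was 0 without vehicle replicate 1 or 2, 1 without PTH replicate 1 or with no variance trend and 2 without vehicle replicate 3 or with quantile normalisation.

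The secretory pathway carries these proteins out of the cell. Of its 34 genes tested, 6 (17.6%) were higher and none lower, beside 6.38% and 8.85% of all genes tested. The median was 0.30, and 31 had a log2 fold change above 0, as did 6581 of all 13004 genes. *Ssr4*, a subunit of the translocon-associated protein complex, had 174, 166 and 207 FPKM with vehicle and 332, 318 and 329 with PTH (log2 fold change 0.84, standard error 0.106, limma adjusted *p* = 0.0138). *Xbp1*, the transcription factor that expands the endoplasmic reticulum, had 108, 107 and 121 with vehicle and 169, 151 and 181 with PTH (log2 fold change 0.57). Of the secretory pathway, the count called higher (6) was 0 without vehicle replicate 1 or 2, 1 without PTH replicate 1 or with quantile normalisation, 2 without PTH replicate 3 or with no variance trend, 3 without vehicle replicate 3 or with no filter on low values and 11 without PTH replicate 2.

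**Figure D2:**
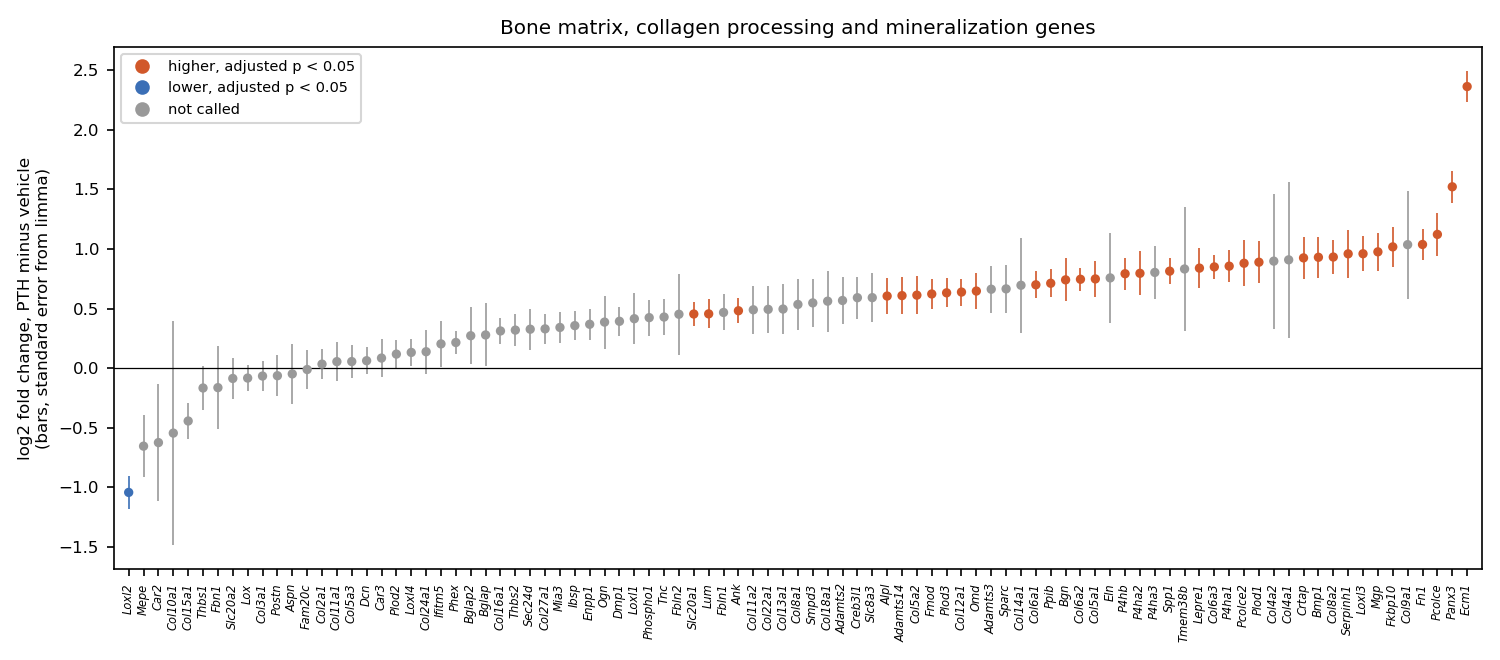
log2 fold change (PTH minus vehicle) of each tested gene for collagen chains, collagen folding and crosslinking, noncollagenous matrix and mineralization, ordered by size, with the standard error from limma as bars and called genes in color. *Col1a1* and *Col1a2* are left out because they are listed at 0. Called genes are higher with PTH except *Loxl2*, which lies at the low end, and *Ecm1* and *Panx3* lie at the high end.

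In the signalling chain of PTH itself, the receptor did not pass the test. *Pth1r* had an FPKM of 98.2, 89.8 and 105 with vehicle and 112, 104 and 147 with PTH, with overlapping groups (log2 fold change 0.30, standard error 0.145, limma adjusted *p* = 0.200), and *Pth2r* was listed at 0 in all 6 libraries. Of 39 receptor and cAMP genes tested, 6 (15.4%) were higher and 4 (10.3%) lower, with a median of 0.31. The shares over all genes tested were 6.38% and 8.85%, so the lower share was near that of all genes. *Rgs2* and *Rgs4* encode proteins that shorten signalling by G proteins. *Rgs2* had 28.03, 24.5 and 26.6 with vehicle and 50.9, 43.7 and 53.00 with PTH (log2 fold change 0.87, standard error 0.112, limma adjusted *p* = 0.0138), and *Rgs4* had 2.003, 2.83 and 2.22 with vehicle and 6.55, 6.12 and 4.86 with PTH (log2 fold change 1.03, standard error 0.163, limma adjusted *p* = 0.0172). Both were higher in all PTH libraries than in any vehicle library. *Adcy6*, an adenylyl cyclase, was higher as well, at 9.03, 10.3 and 11.6 with vehicle and 17.96, 15.7 and 21.7 with PTH (log2 fold change 0.77). *Adcy7*, a cyclase abundant in blood cells, was lower, at 4.67, 4.42 and 2.45 with vehicle and 0.952, 1.44 and 0.910 with PTH (log2 fold change -1.18). *Prkacb* and *Prkar2a*, which encode subunits of protein kinase A, were also lower. The catalytic *Prkacb* had 33.3, 37.9 and 28.4 with vehicle and 14.4, 17.4 and 13.4 with PTH (log2 fold change -1.09, standard error 0.147). The regulatory *Prkar2a* had 16.3, 16.5 and 14.8 with vehicle and 8.36, 7.65 and 7.33 with PTH (log2 fold change -0.94, standard error 0.109). *Adcy7*, *Prkacb* and *Prkar2a* were each lowest in vehicle replicate 3 and in PTH replicate 3 within their groups. The summed pan-leukocyte markers (below) had the same lowest libraries, and the part of leukocytes in these falls was not tested. All 10 called members kept an unadjusted limma *p* under 0.05 with each library left out, as did 1974 of all 1981 called genes. Of PTH receptor and cAMP signalling, the count called higher (6) was 0 without vehicle replicate 1 or 2 and 2 without PTH replicate 1, and the count called lower (4) was 0 without vehicle replicate 1 or 2 and 2 without PTH replicate 1.

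Immediate early genes and cAMP targets were sampled 24 h after the last dose. Of 26 tested, 6 (23.1%) were higher and none lower, beside 6.38% and 8.85% of all genes tested. The median was 0.42, and 24 had a log2 fold change above 0, as did 6581 of all 13004 genes. After *Avpi1*, the largest was *Egr3*, a zinc finger factor, at 28.6, 28.9 and 38.6 FPKM with vehicle and 54.9, 51.1 and 98.6 with PTH (log2 fold change 1.02, standard error 0.258, limma adjusted *p* = 0.0430). *Nr4a1*, an orphan nuclear receptor, had 107, 98.1 and 124 with vehicle and 168, 147 and 214 with PTH (log2 fold change 0.67), and *Junb*, an AP-1 subunit, had 221, 201 and 234 with vehicle and 304, 289 and 427 with PTH (log2 fold change 0.61). PTH replicate 3 was highest for these 3 genes. *Ptgs2*, the inducible cyclooxygenase, had 236, 214 and 242 with vehicle and 388, 347 and 341 with PTH (log2 fold change 0.63, standard error 0.0967, limma adjusted *p* = 0.0162), and *Dusp1*, a MAP kinase phosphatase, had a log2 fold change of 0.61. Of immediate early genes, the count called higher (6) was 0 without vehicle replicate 1 or 2 and 2 without PTH replicate 1, with no filter on low values, with no variance trend or with quantile normalisation.

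Growth factor genes were called higher in more than 1 family. Of 33 genes of the IGF, FGF, PDGF and VEGF families, 12 (36.4%) were higher and none lower, with a median of 0.38. These shares stand beside 6.38% and 8.85% of all genes tested. Besides *Fgf2*, the ligand genes *Mdk* and *Pdgfa* rose. *Mdk*, midkine, a heparin-binding cytokine, had 7.501, 9.87 and 7.23 FPKM with vehicle and 15.6, 18.4 and 17.4 with PTH (log2 fold change 0.99, standard error 0.143, limma adjusted *p* = 0.0143). *Pdgfa*, which recruits mesenchymal cells, had 41.1, 39.2 and 43.3 with vehicle and 70.96, 68.7 and 98.3 with PTH (log2 fold change 0.91, standard error 0.150, limma adjusted *p* = 0.0177). The groups did not overlap for either of them. *Igfbp6*, which binds insulin-like growth factors, had 12.3, 11.4 and 8.97 with vehicle and 20.8, 21.6 and 18.1 with PTH (log2 fold change 0.84). *Igfbp5*, of the same family, had 27.98, 22.6 and 26.4 with vehicle and 39.2, 39.2 and 53.7 with PTH (log2 fold change 0.75). *Igf1* itself was low, at 1.31, 0.498 and 0.659 with vehicle and 0.999, 1.69 and 0.892 with PTH, and its groups overlapped (limma adjusted *p* = 0.462). Of growth factors, the count called higher (12) was 0 without vehicle replicate 1 or 2 and 4 without PTH replicate 1.

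Of 36 BMP and TGF-β genes, 7 (19.4%) were higher and none lower, beside 6.38% and 8.85% of all genes tested. Their median was 0.16. *Inhba*, the activin A subunit, had 6.51, 2.26 and 3.72 FPKM with vehicle and 9.74, 12.7 and 13.7 with PTH (log2 fold change 1.41, standard error 0.299, limma adjusted *p* = 0.0290), and *Tgfb1* had 67.4, 65.4 and 71.4 with vehicle and 109.7, 91.2 and 131 with PTH (log2 fold change 0.68). *Bmp2*, an inducer of bone, had 61.6, 57.8 and 67.6 with vehicle and 99.7, 86.1 and 95.2 with PTH (log2 fold change 0.58, standard error 0.104), and *Bmp5* had a log2 fold change of 0.70. *Chrd*, chordin, which binds BMPs and keeps them from their receptors, had 4.08, 3.497 and 3.92 with vehicle and 5.74, 6.47 and 6.66 with PTH (log2 fold change 0.59). Ligands and an inhibitor thus rose side by side. *Ltbp3*, which holds latent TGF-β in matrix, had a log2 fold change of 0.68. Of BMP and TGF-β genes, the count called higher (7) was 0 without vehicle replicate 1 or 2 or PTH replicate 1, 3 without vehicle replicate 3 and 4 without PTH replicate 2.

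Wnt genes were called in both directions. Of 44 tested, 9 (20.5%) were higher and 5 (11.4%) lower, with a median of 0.18. Over all genes tested the shares were 6.38% and 8.85%, so the lower share was near that of all genes. Among the 5 lower were *Lef1* and *Tcf7*, given above with the transcription factors, which T cells also express. *Notum*, an enzyme that inactivates Wnts, had 5.96, 3.62 and 6.52 FPKM with vehicle and 18.5, 15.02 and 23.5 with PTH (log2 fold change 1.66, standard error 0.232, limma adjusted *p* = 0.0142). *Wif1*, a secreted protein that binds Wnts, had 62.7, 65.3 and 82.6 with vehicle and 169, 146 and 194 with PTH (log2 fold change 1.26, standard error 0.149, limma adjusted *p* = 0.0133). *Wnt7b*, a ligand that drives bone formation, had 1.61, 1.17 and 2.58 with vehicle and 6.42, 6.59 and 8.95 with PTH (log2 fold change 1.59, standard error 0.221, limma adjusted *p* = 0.0142). These are 2 inhibitors and 1 ligand, and each was higher in all PTH libraries. *Wnt16*, a ligand known to restrain osteoclasts, had 4.08, 2.73 and 2.64 with vehicle and 4.99, 6.08 and 5.202 with PTH (log2 fold change 0.64). On the lower side, *Wnt6* had 2.78, 2.88 and 1.63 with vehicle and 0.451, 0.402 and 0.0600 with PTH (log2 fold change -1.39, standard error 0.236, limma adjusted *p* = 0.0184), and *Rnf43*, which removes Frizzled receptors and is a gene of gut epithelium too, had 2.402, 2.66 and 1.54 with vehicle and 0.682, 0.517 and 0.0816 with PTH (log2 fold change -1.17). Both were lowest in PTH replicate 3, the library with the lowest sum of gut genes. PTH replicate 2 had the highest gut sum, 944.4 FPKM, and there too both lay below every vehicle library. The part of gut transcripts in their falls was not tested. *Wnt10a*, also lower, fell below the filter without vehicle replicate 1. Of Wnt genes, the count called higher (9) was 0 without vehicle replicate 1 or 2 and 4 without PTH replicate 1, and the count called lower (5) was 0 without vehicle replicate 1 or 2 and 2 without PTH replicate 1 or 2.

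Of 23 genes that osteoblasts use to control osteoclasts, 5 (21.7%) were higher and 1 (4.35%) was lower, beside 6.38% and 8.85% of all genes tested. The lower one was *Tnfsf11*, RANKL, at 11.8, 13.03 and 12.3 FPKM with vehicle and 6.49, 7.76 and 6.11 with PTH (log2 fold change -0.79, standard error 0.123, limma adjusted *p* = 0.0168). It lay below vehicle in each PTH library, at a log2 fold change of -0.87 to -0.72 with 1 library left out, and its adjusted *p* was 0.0768 and 0.0808 without vehicle replicates 1 and 2 (limma). *Tnfsf11* is also expressed by T cells, whose markers fell in the same libraries (below), and their part in this fall was not tested. *Tnfrsf11b*, the decoy, had 25.1, 22.1 and 27.6 with vehicle and 34.6, 29.1 and 27.1 with PTH, with PTH replicate 3 inside the range of the vehicle libraries (limma adjusted *p* = 0.202). *Il11*, a cytokine of the interleukin 6 family, had 6.13, 6.75 and 6.39 with vehicle and 13.6, 11.4 and 12.3 with PTH (log2 fold change 0.86, standard error 0.114, limma adjusted *p* = 0.0139), and *Plxnb1*, the receptor of semaphorin 4D, had 4.64, 4.97 and 6.600 with vehicle and 9.35, 8.15 and 13.1 with PTH (log2 fold change 0.80). *Csf1* had 16.8, 17.3 and 20.9 with vehicle and 20.9, 16.9 and 21.1 with PTH. *Cxcl1* had 31.7, 24.1 and 24.6 with vehicle and 28.5, 32.5 and 36.6 with PTH. *Cxcl12* had 28.5, 22.4 and 23.4 with vehicle and 29.02, 23.4 and 28.2 with PTH. These 3 attractants or survival factors of osteoclast precursors and leukocytes had overlapping groups and were not called (limma adjusted *p* = 0.654, 0.234 and 0.576). Of osteoclast control, the count called higher (5) was 0 without vehicle replicate 1 or 2, 2 without PTH replicate 1 and 3 with no filter on low values or with no variance trend.

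Of 17 clock genes tested, 7 (41.2%) were higher and 2 (11.8%) lower, beside 6.38% and 8.85% of all genes tested. The other 8 were not called, and the median was 0.48. The period genes, repressors at the core of the loop, all rose. *Per2* had 2.31, 2.08 and 2.86 FPKM with vehicle and 8.05, 7.96 and 8.08 with PTH (log2 fold change 1.41, standard error 0.133, limma adjusted *p* = 0.0131), *Per3* had 0.626, 1.04 and 1.04 with vehicle and 3.51, 3.39 and 4.74 with PTH (log2 fold change 1.36, standard error 0.184, limma adjusted *p* = 0.0139) and *Per1* had 6.56, 7.34 and 8.66 with vehicle and 13.4, 12.8 and 16.9 with PTH (log2 fold change 0.85, standard error 0.152, limma adjusted *p* = 0.0204). PTH libraries agreed closely for *Per2* and lay apart from vehicle for all 3. *Dbp*, an output factor of the clock, had 0.638, 2.703 and 2.94 with vehicle and 6.66, 13.6 and 10.8 with PTH (log2 fold change 1.93, standard error 0.385). *Tef*, of the same family, had 5.93, 6.198 and 5.01 with vehicle and 14.7, 16.2 and 19.7 with PTH (log2 fold change 1.41, standard error 0.144). *Npas2*, an activator that pairs with BMAL1, was lower, at 5.001, 4.25 and 5.35 with vehicle and 2.53, 2.04 and 1.52 with PTH (log2 fold change -0.96). Chosen after their values were seen, *Arntl*, which encodes BMAL1, was lower too (16.5, 16.2 and 20.1 with vehicle and 12.9, 12.01 and 8.88 with PTH, log2 fold change -0.61), and *Clock* was not called. Of the 7 higher genes, 6 had a promoter entry, and cores of the cAMP element were in *Per1* and *Cry2*. Each of the 2 *Per1* promoters held 1, and that of the start further along the gene is shown with the core in capitals.
Per1, chr11:69099902-69100201, plus strand: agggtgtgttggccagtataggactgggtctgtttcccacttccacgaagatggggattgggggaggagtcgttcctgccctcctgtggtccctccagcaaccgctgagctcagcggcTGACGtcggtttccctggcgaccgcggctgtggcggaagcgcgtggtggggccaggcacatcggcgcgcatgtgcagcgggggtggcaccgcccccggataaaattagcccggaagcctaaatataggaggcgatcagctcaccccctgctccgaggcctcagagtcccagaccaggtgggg
All 9 called clock genes kept an unadjusted limma *p* under 0.05 with each library left out, as did 1974 of all 1981 called genes. Of the clock, the count called higher (7) was 0 without vehicle replicate 1 or 2. The hour at which each mouse was killed is not given in the sources used here.

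Of 36 cell cycle genes tested, 12 (33.3%) were lower and 1 was higher, beside 8.85% and 6.38% of all genes tested. Their median was -0.74. Among those called lower were 6 subunits of the MCM helicase (*Mcm2* to *Mcm7*), which unwinds DNA for replication. *Mcm3* had 30.3, 32.4 and 19.1 FPKM with vehicle and 8.41, 8.39 and 3.499 with PTH (log2 fold change -1.91, standard error 0.331, limma adjusted *p* = 0.0190), and *Mcm7* had 58.4, 50.3 and 38.02 with vehicle and 18.7, 15.2 and 10.8 with PTH (log2 fold change -1.66, standard error 0.226, limma adjusted *p* = 0.0139). *Mki67*, the proliferation marker Ki-67, had 18.3, 20.4 and 12.4 with vehicle and 9.72, 7.48 and 5.52 with PTH (log2 fold change -1.07, standard error 0.239, limma adjusted *p* = 0.0321). In each, vehicle replicate 3 was the lowest vehicle library and PTH replicate 3 the lowest PTH library, and the groups did not overlap. The summed pan-leukocyte markers (below) had the same lowest libraries in each group, and their part in the fall was not tested. *Ccnd1*, cyclin D1, was the one higher member, named after its values were seen, with 6.801, 6.42 and 7.33 with vehicle and 15.3, 17.9 and 18.8 with PTH (log2 fold change 1.22, standard error 0.121, limma adjusted *p* = 0.0131). Its libraries were tight within each group. Of the cell cycle, the count called lower (12) was 0 without vehicle replicate 1 or 2.

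**Figure D3:**
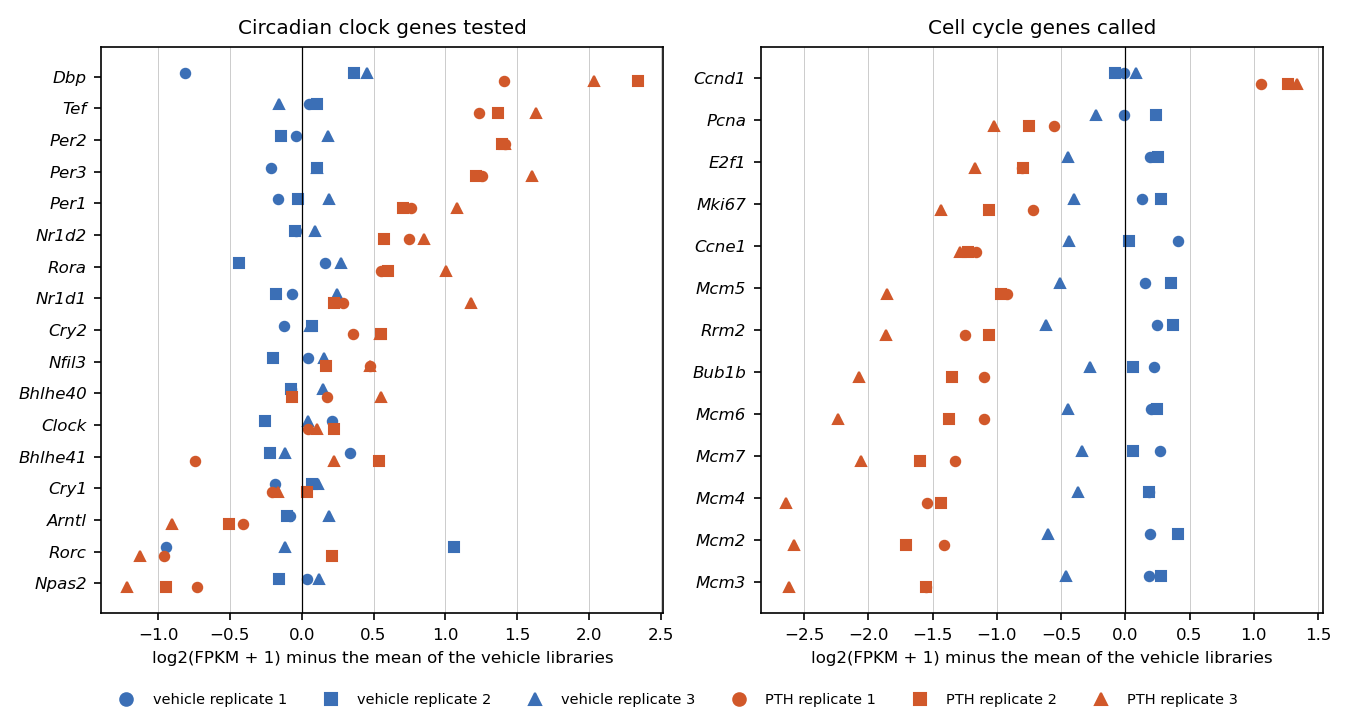
Level of the 17 clock genes tested (left) and of the 13 cell cycle genes called (right) in each library, as log2(FPKM + 1) minus the mean of the 3 vehicle libraries, so that 0 is the vehicle mean. The period genes, *Dbp* and *Tef* lie to the right in all PTH libraries and *Npas2* to the left. Among the cell cycle genes only *Ccnd1* lies to the right.

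Metabolic lists were mixed. Of 26 genes for amino acid supply and ATF4 targets, 2 (7.69%) were higher and 5 (19.2%) lower. These shares stand beside 6.38% and 8.85% over all genes tested. The lower ones were of serine and one-carbon synthesis and of transport. *Phgdh*, the first enzyme of serine synthesis, had 53.8, 52.6 and 40.8 FPKM with vehicle and 17.1, 21.2 and 16.6 with PTH (log2 fold change -1.37, standard error 0.150, limma adjusted *p* = 0.0133), and *Shmt2*, which splits serine in mitochondria, had 42.2, 44.4 and 35.95 with vehicle and 23.8, 20.5 and 20.7 with PTH (log2 fold change -0.88, standard error 0.119, limma adjusted *p* = 0.0139). *Slc1a5*, a glutamine carrier, had 21.1, 22.1 and 19.1 with vehicle and 10.1, 10.5 and 8.62 with PTH (log2 fold change -1.02, standard error 0.119, limma adjusted *p* = 0.0133). Vehicle replicate 3 was the lowest vehicle library for these 3 genes. PTH replicate 3 was the lowest PTH library for *Phgdh* and *Slc1a5*, and PTH replicate 2 was for *Shmt2*. The summed pan-leukocyte markers (below) were lowest in replicate 3 of each group, and the part of leukocytes in these falls was not tested. *Slc7a11* and *Psph* had log2 fold changes of -1.14 and -1.11. *Pycr1*, an enzyme of proline synthesis, was higher, at 10.5, 10.3 and 11.96 with vehicle and 17.5, 16.3 and 21.6 with PTH (log2 fold change 0.70). Proline and glycine, which serine yields, are the amino acids most used in collagen. Among the genes named here, *Phgdh* and *Shmt2* of the serine route were lower, while *Pycr1* alone stands for the proline route. Of 18 glycolytic genes, 2 were higher (*Pfkfb3* and *Pfkm*) and 1 lower (*Pfkp*). The cytosolic ribosome (78 tested, 3 higher and 2 lower) and the respiratory chain (81 tested, 5 higher and 3 lower) had shares at or below those of all genes, and with quantile normalisation none of their members was higher. No member of the lists of this paragraph was called without vehicle replicate 1 or 2, none of glycolysis, ribosome or respiratory chain without PTH replicate 1, and none of glycolysis without vehicle replicate 3.

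Of 20 acute-phase and mucosal defence genes tested, 5 (25%) were higher and none lower, beside 6.38% and 8.85% of all genes tested. The 5 were *Slpi*, *Saa3*, *Il1b*, *Hp* and *Lcn2*, each raised by at least 2-fold. *Il1b*, interleukin 1β, had 2.097, 2.31 and 2.51 FPKM with vehicle and 10.7, 10.7 and 6.98 with PTH (log2 fold change 1.64, standard error 0.182, limma adjusted *p* = 0.0133). *Hp*, haptoglobin, had 4.13, 4.19 and 3.597 with vehicle and 15.99, 13.6 and 11.6 with PTH (log2 fold change 1.56, standard error 0.145, limma adjusted *p* = 0.0131). *Lcn2*, lipocalin 2, had 11.4, 15.4 and 16.1 with vehicle and 59.8, 56.5 and 20.2 with PTH, least raised in PTH replicate 3 (log2 fold change 1.47, standard error 0.395, limma adjusted *p* = 0.0487). Granulocytes express *Il1b*, *Hp* and *Lcn2* as well, and the neutrophil markers (below) were also least raised in PTH replicate 3. *Slpi* had its middle value and *Saa3* its highest value there. The paper examined bone marrow granulocytes among the populations reported to express *Slpi*, and its qPCR there showed no increase with PTH. The part of granulocytes in the 5 rises was not tested here. In contrast, of 28 interferon-stimulated genes 7 (25%) were lower and none higher. *Psmb8*, an immunoproteasome subunit, had 54.4, 52.3 and 29.1 with vehicle and 11.6, 10.6 and 4.29 with PTH (log2 fold change -2.28, standard error 0.377, limma adjusted *p* = 0.0177). *Psmb9*, of the same complex, had 17.3, 13.6 and 7.82 with vehicle and 4.44, 6.47 and 2.61 with PTH (log2 fold change -1.33, standard error 0.341, limma adjusted *p* = 0.0436). *Psmb8* was lowest in PTH replicate 3, as the summed pan-leukocyte markers (below) were, and the part of leukocytes was not tested. Of acute-phase genes, the count called higher (5) was 0 without vehicle replicate 1 or 2 and 3 without PTH replicate 1 or with a pseudocount of 0.1. Of interferon-stimulated genes, the count called lower (7) was 0 without vehicle replicate 1 or 2, 2 without PTH replicate 1 and 3 without PTH replicate 3 or with no filter on low values.

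The pan-leukocyte, T cell and NK marker lists had most members lower. Of 6 B cell markers 1 was lower, and neutrophil markers were higher (below). Of 12 pan-leukocyte markers, 9 (75%) were lower and none higher, beside 8.85% and 6.38% of all genes tested. Their median was -1.75, and their FPKM summed to 326, 364 and 219 with vehicle and 117, 101 and 17.9 with PTH. *Ptprc*, which encodes CD45, the antigen the sort selected against, had 56.9, 59.2 and 35.9 with vehicle and 10.1, 8.53 and 0.930 with PTH (log2 fold change -3.10, standard error 0.635, limma adjusted *p* = 0.0270). Of 11 T cell markers tested, 8 (72.7%) were lower, with sums of 181, 183 and 116 with vehicle and 23.3, 26.7 and 1.56 with PTH. *Cd3g*, a chain of the T cell receptor complex and the largest fall among named genes, had 97.5, 87.3 and 60.4 with vehicle and 7.89, 10.7 and 0 with PTH (log2 fold change -4.11, standard error 0.861, limma adjusted *p* = 0.0283), and *Lck*, its kinase, had 16.3, 13.7 and 9.82 with vehicle and 1.499, 1.74 and 0.239 with PTH (log2 fold change -2.78, standard error 0.329, limma adjusted *p* = 0.0133). *Cd4*, *Cd8a*, *Cd8b1* and *Cd5*, which define T cell classes, stayed under 1 FPKM in every library and were not tested. NK and cytotoxic markers had 3 of 5 lower, with sums of 55.1, 49.6 and 28.01 with vehicle and 13.4, 7.82 and 1.04 with PTH. *Klrd1*, an NK receptor, had 21.6, 17.5 and 11.01 with vehicle and 2.34, 2.47 and 0 with PTH (log2 fold change -2.92, standard error 0.498, limma adjusted *p* = 0.0184). Vehicle replicate 3 was the lowest vehicle library and PTH replicate 3 the lowest PTH library for each of these genes. In bulk libraries fewer cells of a type and less RNA per cell cannot be told apart. Without PTH replicate 3 the log2 fold change of *Cd3g* was -2.99 and that of *Ptprc* -2.30, with limma adjusted *p* of 0.00188 and 0.00427. Of pan-leukocyte markers, the count called lower (9) was 0 without vehicle replicate 1 or 2, 2 without vehicle replicate 3, with no filter on low values or with a pseudocount of 0.1, 3 with no variance trend and 4 without PTH replicate 1. Of T cell markers, the count called lower (8) was 0 without vehicle replicate 1 or 2 and 5 without PTH replicate 1.

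The other 11 of the 12 largest named falls follow. *Gimap4*, a GTPase of lymphocytes, had 61.7, 47.9 and 29.2 FPKM with vehicle and 4.13, 5.58 and 0.183 with PTH (log2 fold change -3.73), and *Ltb*, lymphotoxin β, had 38.8, 28.4 and 19.5 with vehicle and 2.37, 2.67 and 0.377 with PTH (log2 fold change -3.49). *Xcl1*, a chemokine of NK and T cells, had 17.03, 15.5 and 5.57 with vehicle and 0, 0.425 and 0 with PTH (log2 fold change -3.48). All were at or below 1 FPKM in PTH replicate 3. *Cpa3*, the carboxypeptidase of mast cells and basophils, had 74.01, 70.7 and 46.7 with vehicle and 6.18, 7.52 and 0.269 with PTH (log2 fold change -3.90, standard error 0.682, limma adjusted *p* = 0.0193). Of 7 mast cell and basophil markers tested, *Cpa3* and *Hpgds* were lower, *Hpgds*, a prostaglandin D synthase, at 2.99, 3.600 and 2.496 with vehicle and 0.724, 0.525 and 0 with PTH (log2 fold change -1.54). *Mcpt4*, *Tpsab1*, *Ms4a2* and *Fcer1a* were listed at 0 in all 6 libraries, *Tpsb2* at 0 in all but vehicle replicate 3 (0.133), and *Hdc*, the histamine-forming enzyme, was higher, at 1.08, 1.74 and 1.18 with vehicle and 5.61, 4.89 and 4.27 with PTH (log2 fold change 1.35). *Gata3* and *Arg1*, of the type 2 innate lymphoid list, were lower as well, *Gata3* from 3.88 ± 1.03 FPKM (SD, n = 3) with vehicle to 0.188 ± 0.132 (SD, n = 3) with PTH and *Arg1* from 6.78 ± 3.39 FPKM (SD, n = 3) with vehicle to 0.549 ± 0.355 (SD, n = 3) with PTH, with *Il4*, *Il5* and *Il13* listed at 0 in all libraries. *Ccr8*, *Cd160*, *Cd96*, *Rasgrp1*, *Ms4a4b* and *Ptprcap*, all genes of lymphocytes, and *Cel*, the bile salt-dependent lipase, made up the rest of the 12, with log2 fold changes from -3.46 to -3.11. *Cd3g*, *Ccr8* and *Ms4a4b* were listed at 0 in PTH replicate 3. Over all 491 large falls, vehicle replicate 3 was the lowest vehicle library for 438 and PTH replicate 3 the lowest PTH library for 415, and the median FPKM was 7.91, 8.15 and 5.19 in the vehicle and 2.08, 2.14 and 0.66 in the PTH libraries. The 113 large rises had medians of 5.93, 4.86 and 5.59 and of 15.3, 14.6 and 16.9, without such a gap between replicates. Without vehicle replicate 2, no fall was called at an adjusted *p* under 0.05, and 482 genes were at least 2-fold lower at an unadjusted one.

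Neutrophil markers were higher. Of 17 neutrophil markers tested, 8 (47.1%) were higher and none lower, beside 6.38% and 8.85% of all genes tested. Their median was 1.63, and their FPKM summed to 408, 509 and 465 with vehicle and 2505, 2075 and 727 with PTH. *S100a8*, a calprotectin subunit, had 133, 177 and 171 with vehicle and 922, 724 and 252 with PTH (log2 fold change 1.79, limma adjusted *p* = 0.0417). Its partner *S100a9* had 140.3, 168 and 162 with vehicle and 817, 751 and 277 with PTH (log2 fold change 1.82). *Retnlg*, a resistin-like gene, had 12.9, 12.9 and 12.9 with vehicle and 76.9, 53.3 and 29.3 with PTH (log2 fold change 1.86). All 3 were highest in PTH replicate 1. *Ngp*, neutrophilic granule protein, had 36.3, 38.8 and 34.6 with vehicle and 167, 153 and 59.7 with PTH (log2 fold change 1.63). *Ms4a3*, a gene of granulocyte and monocyte precursors, had 0.584, 1.48 and 0.291 with vehicle and 10.8, 9.78 and 2.08 with PTH (log2 fold change 2.09, limma adjusted *p* = 0.0428). In all 5, PTH replicate 3 was the lowest PTH library but still above vehicle. Of neutrophil markers, the count called higher (8) was 0 without vehicle replicate 1 or 2, 2 without vehicle replicate 3 or PTH replicate 1 or 2, 3 with no filter on low values and 15 without PTH replicate 3. Megakaryocyte and platelet markers summed to 4.26, 7.74 and 5.83 with vehicle and 202, 165 and 6.91 with PTH, so that PTH replicate 3 was at the vehicle level. Of these 11 markers 1 (9.09%, beside 6.38% of all genes tested) was called higher, *Gp1bb* (log2 fold change 1.03). Without PTH replicate 3, 9 were called, while without vehicle replicate 3, PTH replicate 1 or PTH replicate 2 none was. Monocyte and macrophage markers had 1 of 13 higher, *Cd14* (2.79, 4.62 and 3.72 with vehicle and 8.79, 10.1 and 5.97 with PTH), and 1 lower, *Cx3cr1* (7.86, 7.62 and 4.18 with vehicle and 1.15, 1.74 and 0.0317 with PTH). Each share, 7.69%, was near that of all genes tested, 6.38% higher and 8.85% lower. *Ctsk*, cathepsin K, the collagen-degrading protease of osteoclasts, was the higher one of 3 osteoclast markers tested, with 141, 134 and 154 with vehicle and 225, 228 and 282 with PTH (log2 fold change 0.77, standard error 0.119, limma adjusted *p* = 0.0164), while *Calcr*, *Oscar*, *Dcstamp* and *Ocstamp* stayed under 1 FPKM in every library.

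Chondrocyte markers had 3 of 13 (23.1%) higher, beside 6.38% of all genes tested, with a median of 0.93. *Acan*, aggrecan, had 16.04, 12.1 and 13.7 FPKM with vehicle and 33.7, 30.3 and 19.9 with PTH (log2 fold change 0.93, standard error 0.207, limma adjusted *p* = 0.0320), *Comp* had 146, 120.4 and 131 with vehicle and 255, 239.6 and 195 with PTH (log2 fold change 0.79, standard error 0.130, limma adjusted *p* = 0.0177), and *Sox9* was given above. Tendon and fibroblast markers had 2 of 8 higher, with a median of -0.10 and 4 above 0, *Tnmd* at 3.08, 2.31 and 2.195 with vehicle and 5.25, 6.58 and 5.49 with PTH (log2 fold change 0.94) and *Scx* at 5.73, 4.07 and 3.78 with vehicle and 6.33, 11.3 and 10.2 with PTH (log2 fold change 0.88). These are the membrane protein and the transcription factor of tendon. Of 6 markers of CXCL12-abundant reticular (CAR) stroma, *Lepr* and *Hp* were higher, *Lepr* at 2.997, 3.503 and 2.499 with vehicle and 4.77, 4.54 and 4.98 with PTH (log2 fold change 0.53). Adipocyte, endothelial, smooth muscle, skeletal muscle, cardiac muscle, Schwann cell, erythroid, dendritic and gut lists had no called member, and the B cell list had 1 lower, *Pou2af1* (log2 fold change -1.35). The cardiac markers had a median of 1.57 that was -0.88 without PTH replicate 2, and the gut markers one of -1.23 and -0.11 without PTH replicate 3. Of chondrocyte markers, the count called higher (3) was 0 without vehicle replicate 1 or 2, 1 without PTH replicate 1 and 9 without PTH replicate 3.

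**Figure D4:**
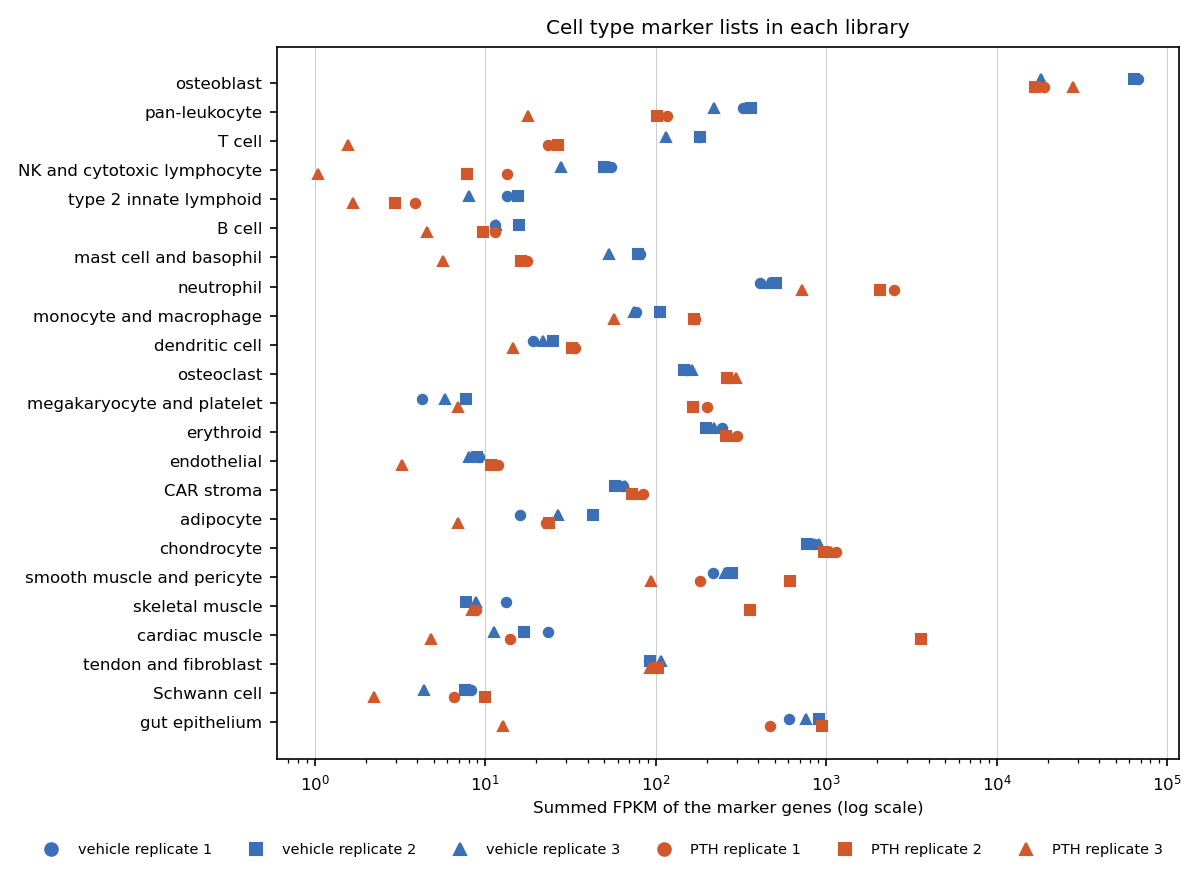
Summed FPKM of each cell type marker list in each library, on a log scale, with vehicle in blue, PTH in orange and the replicate given by the shape. T cell, NK and pan-leukocyte sums are lower in all PTH libraries and neutrophil sums higher in all. PTH replicate 2 stands alone for cardiac and skeletal muscle and PTH replicate 3 for gut epithelium.

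**Figure D5:**
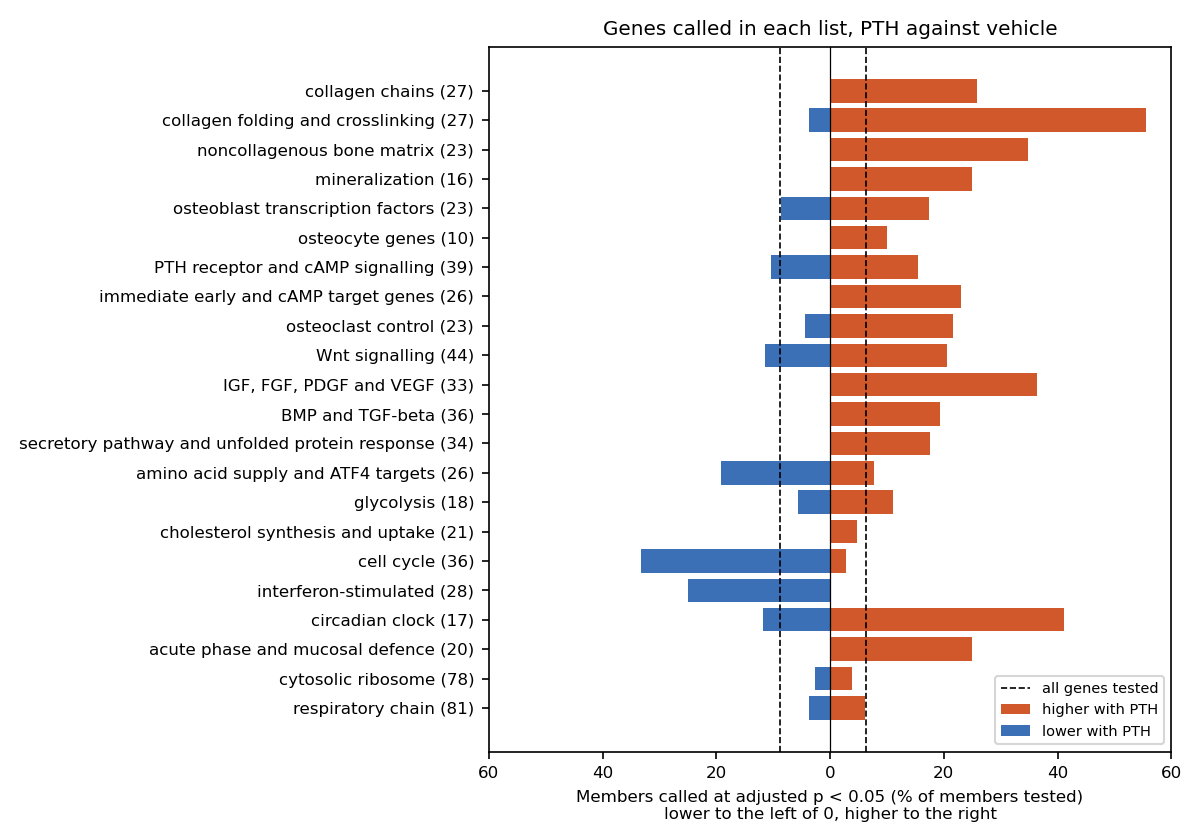
Share of the tested members of each pathway list that were called higher (orange, to the right) or lower (blue, to the left) with PTH, with the number tested in brackets. Dashed lines mark the shares over all genes tested, 6.38% and 8.85%, and collagen folding, clock and growth factor genes lie farthest right, cell cycle and interferon genes farthest left.

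The genes changed at least 2-fold with PTH were also read in MC3T3-E1 cells, with 3 mock and 3 *Slpi* libraries. Of 107 higher genes in the MC3T3-E1 files, 69 (64.5%) had a mean of at least 1 FPKM in mock cells, as did 245 of 468 lower genes (52.4%) and 9916 of 12213 genes tested with PTH (81.2%). Both sets were thus less often at this level than all genes, a description without a test. The response to *Slpi* overexpression was a separate comparison with its own libraries, in which 3658 of 11466 genes (31.9%) were higher and 3315 (28.9%) lower at an adjusted *p* under 0.05 (limma). Of 72 higher genes tested in it, 22 (30.6%) were higher and 32 (44.4%) lower, and of 257 lower genes, 135 (52.5%) were higher and 61 (23.7%) lower. At least 2-fold, 5 of the 72 were higher with *Slpi* and none lower, against 0.733% and 0.384% of all genes tested there. Of these, *Slpi* was the overexpressed gene, which leaves 4 of 71. The 5 were *Slpi*, *Wnt7b*, *Panx3*, *Wif1* and *Smpdl3b*, a membrane-bound phosphodiesterase, named after their values were seen. With *Slpi* overexpression their log2 fold changes were 2.35, 2.05, 2.52, 1.61 and 1.34, and with PTH 3.15, 1.59, 1.52, 1.26 and 1.14. Of the 257 lower genes, 5 were at least 2-fold higher with *Slpi* (*Fam60a*, *Cenpv*, *Lef1*, *AI506816* and *Avil*) and 2 at least 2-fold lower (*Rpph1* and *Prss12*). *Lef1* was at -1.08 with PTH and 1.45 with *Slpi*.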

How the data were processed

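RNA-Seq of sorted Col2.3-ECFP+ osteoblasts (3 vehicle and 3 PTH libraries) was analysed, with the MC3T3-E1 libraries used only for comparison. Libraries were grouped by their labels. The deposited FPKM values were made by the authors with Cufflinks 2.2.1 (Cuffnorm) after alignment with TopHat 2.0.13 and Bowtie2 2.2.3 to mm10, with SAMtools 0.1.19, according to the study's methods and the submitters' processing notes. The scaling option and the annotation are not given in the sources used here. FPKM hold no read numbers, so precision rests on the 3 libraries per group, and relative depth was estimated from steps in the low values.

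Genes that reached 1 FPKM in any of the 6 libraries were tested on log2(FPKM + 1) with limma 3.58.1 in R 4.3.3 (moderated test with a variance trend, two-sided), and *p* values were adjusted by Benjamini-Hochberg over all genes tested. Log2 fold changes are on this scale and understate changes of low genes. A gene was called at an adjusted *p* under 0.05. The procedure was tested on simulated data. Lists were described by counts and medians without set tests.

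Members and lists were chosen with earlier results of these data known. Named genes were the 12 largest rises and falls among non-overlapping genes changed at least 2-fold, without short RNA and unnamed genes, up to 6 called members per pathway list and up to 4 per marker list by size, and a set of standard bone genes. *AI506816*, *Arntl*, *Avil*, *Ccnd1*, *Cenpv*, *Clock*, *Cry2*, *Fam60a*, *Mcm5*, *Prss12*, *Rpph1*, *Smpdl3b* and *Wnt10a* were named after their values were seen. Alternatives were another pseudocount, filters, scalings, no variance trend, a replicate block, removal of failed estimates and short RNA genes, and leaving out each library. Some genes that the rule names are not reported here.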

Additional observations from a re-analysis of the deposited data

How the results depend on the processing

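Counts at an adjusted *p* under 0.05 (830 higher, 1151 lower; at least 2-fold, 113 and 491) depended most on vehicle replicates 1 and 2. With 1 library left out they ranged from 0 to 674 higher and 0 to 895 lower, and at least 2-fold from 0 to 179 and 0 to 527, with the lowest values without vehicle replicates 1 and 2. With no filter on low values 517 were higher, and with a pseudocount of 0.1 or quantile normalisation 182 and 172 were at least 2-fold higher. Called genes other than *Ecm1* lost their adjusted call without vehicle replicate 1, and all did without vehicle replicate 2. The cause was not tested, and the other fits of 2 against 3 libraries kept 172 to 674 higher and 405 to 895 lower. Among genes not called, the sign turned for *H2-Ab1* (-0.021 without PTH replicate 1, range up to 0.76), *Bglap* (-0.032 without PTH replicate 3, up to 0.48), *Clock* (-0.0045 without vehicle replicate 2, up to 0.23) and *Sost* (-0.052 without PTH replicate 1, up to 0.39). Same-numbered libraries had deviation correlations of 0.0294, 0.0735 and 0.102, and differently numbered ones had -0.116 to 0.0688. Each library correlated best with its own number except PTH replicate 1, which did so with vehicle replicate 2. The values were small and the labels name no pairs, so the numbers were not taken to pair the libraries. With the replicate number as a block, 1028 were higher and 1234 lower, 116 and 517 at least 2-fold. The block ended the calls of *AI506816*, *Arntl*, *Bmp5*, *Gp1bb*, *Lcn2*, *Lepr*, *Scx*, *Smpdl3b*, *Tcf7*, *Wnt10a* and *Wnt16* and added *Dmp1*, *Ibsp*, *Runx2* and *Sp7*. Depth limits what can be said of low genes, since FPKM give no read numbers.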
